A study of Mus musculus with 26 samples.

Results

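The genes described here are the receptor for glial cell line-derived neurotrophic factor (GDNF), made of Gfra1 and Ret, together with 3 transcription factor genes that respond to it in spermatogonial stem cells (Etv5, Bcl6b and Lhx1) and Kit, the receptor that marks differentiating spermatogonia. The members were taken by these 6 gene symbols in the platform's annotation. It names 5 of the 6 genes, among 16593 named genes in all, through 6 of 25697 probes: Ret has 2 probes and no probe carries the name Kit. Kit was therefore not measured under its name, although 1719 probes have no gene name.

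GDNF is secreted by Sertoli and other somatic cells of the testis. It binds the membrane-anchored co-receptor GFRA1, and the complex activates the receptor tyrosine kinase RET, which signals through the SRC family, PI3K-AKT and RAS-ERK pathways. In cultured mouse spermatogonial stem cells this signal sustains self-renewal and keeps up transcription of a set of genes that includes Etv5, Bcl6b, Lhx1, Egr4 and Nanos2. Etv5 is not particular to the germ line. It belongs, with Etv1 and Etv4, to the Pea3 family of ETS transcription factors, which respond to FGF and ERK signalling in many cells, embryonic stem cells included.

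Total RNA of 13 mouse cell lines was hybridised to 26 Illumina BeadChip arrays, 2 technical arrays a line. There are 4 lines of induced pluripotent stem cells that were derived from germline stem cells (iPSC) and 4 of pluripotent cells that arose from the germ line by the other route (gPSC, for germline-derived pluripotent stem cells). A line each stands for embryonic stem cells (ESC), for induced pluripotent cells of fibroblast origin (Fib-iPSC) and for fibroblasts, and 2 lines are the germline stem cells themselves (GSC). All share the OG2 strain background, a mouse line with a fluorescent reporter under Pou5f1 regulatory sequence. The labels give no treatment, passage or culture medium. GSCs are unipotent male germ cells usually grown with GDNF on feeder cells. The comparisons ask how far the receptor and the genes downstream of it differ between pluripotent lines and GSCs, and between both routes from germ cells to pluripotency.

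Values are log2 levels after background correction and quantile normalization, averaged over the 2 arrays of a line. The dimmest detected signal of each array (detection p under 0.05) lay between 4.56 and 4.81 on this scale, with a median of 4.63. This floor is used below to say where a level is only a bound. A difference was called where the adjusted p was under 0.05 and the size at least 2-fold, in a limma fit over 15917 detected probes. Before normalization, array medians lay between 89.17 and 143.2, and each array detected at least 12097 and at most 13808 probes. The a arrays differed by group. Their medians were 89.17 to 91.01 in iPSC, with 13226 to 13617 probes detected. In gPSC they were 100.3 to 102.9, with 12439 to 12786 detected, and in GSC, ESC and Fib-iPSC 100.1 to 102.6. On the b arrays the iPSC (90.72 to 93.24) and gPSC medians (89.48 to 93.96) overlapped. The part of this array difference in comparisons of iPSC with those groups was not tested. Between the 2 arrays of a line, log2 levels correlated at 0.994 to 0.996. Defining markers were set against the labels. All 9 pluripotency markers were higher in iPSC than in GSC and 8 of 9 in gPSC, with Nanog differing by 7.27 ± 0.31 and 6.80 ± 0.31 log2 (SE, adjusted p = 4.4e-07 and 7.37e-07), and Dnmt3l, L1td1 and Esrrb also among the largest. Of 14 undifferentiated spermatogonia markers tested, 3 were higher and 6 lower in iPSC, and 2 higher and 7 lower in gPSC. These 14 include the members Ret and Gfra1, and Nanos2 from another list. Utf1 and Cdh1, which pluripotent cells also express, were among the higher ones, while the germ cell genes Dazl (-4.47 and -4.64 log2 in iPSC and gPSC) and Tex101 (-3.78 and -4.52) were among the lower ones. Dazl was no longer called in 5 of 10 (iPSC) and 4 of 10 (gPSC) fits that left out 1 line, GSC line 1 or 2 among them (adjusted p up to 0.13). It was at 10.80 in iPSC line 3, against 6.07 to 6.71 in the other iPSC lines, and the 4 member probes called in iPSC versus GSC were also called without that line.

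Ret carried the largest difference among the members. Its brighter probe (ILMN_3043469) had log2 levels of 4.29, 4.42, 4.32 and 4.31 in iPSC lines 1 to 4 and 4.25, 4.34, 4.32 and 4.30 in gPSC lines 1 to 4. It had 4.48 in the ESC line, 4.54 in Fib-iPSC, 5.16 in fibroblasts, and 8.54 and 8.99 in GSC lines 1 and 2. The GSC lines stood far above every other line, and no array of the 8 iPSC or the 8 gPSC arrays detected the probe, whereas all 4 GSC arrays did. Measured against the detection floor, Ret was at least 17.9-fold lower in iPSC and at least 17.1-fold lower in gPSC than in GSC. In the fit the differences were -4.43 ± 0.13 and -4.46 ± 0.13 log2 (SE, adjusted p = 5.38e-08 and 5.85e-08, limma). The ESC line differed from GSC by -4.28 ± 0.18 (adjusted p = 1.49e-06), with 1 of its 2 arrays just past detection. Fibroblasts, at 5.16 and detected on both arrays, were the second highest group, and the Fib-iPSC line made from fibroblasts was detected on neither of its arrays. The fibroblast arrays had the highest floors (4.78 and 4.81), and Ret lay at 5.40 and 4.92 on them.

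The other Ret probe (ILMN_2683393), designed to another RefSeq transcript record, showed none of this. Its levels ran from 4.21 to 4.60 over the 13 lines, all at or below the floor. It was detected on 1 of the 26 arrays, an array of GSC line 1, and did not pass the detection filter, so it was not tested. The 2 probes thus disagree on the level in GSC, and the values above rest on the brighter one alone.

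Gfra1, the ligand-binding part of the receptor, was near the detection floor in most lines. Its probe (ILMN_2893409) had 4.46, 4.55, 4.60 and 4.41 in iPSC lines 1 to 4 and 4.56, 4.65, 4.58 and 4.70 in gPSC lines 1 to 4. The level was 4.50 in ESC, 4.65 in Fib-iPSC, 5.06 in fibroblasts, and 5.27 and 5.33 in the GSC lines. By line means the GSC lines were again the highest and did not overlap any other group, with fibroblasts close below them. On the a arrays GSC lines 1 and 2 had 5.34 and 5.58, against 4.86 in fibroblasts. The b arrays had the other order, with 5.20 and 5.08 in GSC against 5.26 in fibroblasts. On the fibroblast arrays Gfra1 was at 4.86 and 5.26, over floors of 4.78 and 4.81. It was detected on 2 of 8 arrays in iPSC, 1 of 8 in gPSC, 0 of 2 in ESC, 1 of 2 in Fib-iPSC, 2 of 2 in fibroblasts and 4 of 4 in GSC. Gfra1 was lower than in GSC by -0.79 ± 0.10 log2 in iPSC and -0.67 ± 0.10 in gPSC (SE, adjusted p = 2.12e-04 and 5.63e-04, limma), and at least 1.6-fold lower in ESC, where no array detected it (-0.80 ± 0.14 measured, adjusted p = 0.00288). These differences passed the p threshold but not the 2-fold limit, so Gfra1 was not called. With the authors' own processed values the same differences were -1.81, -1.42 and -1.78 and were called. The 2 arrays of GSC line 2 differed by 0.50 for this probe, the widest gap between arrays of a line among the 5 tested member probes.

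**Figure D1:**
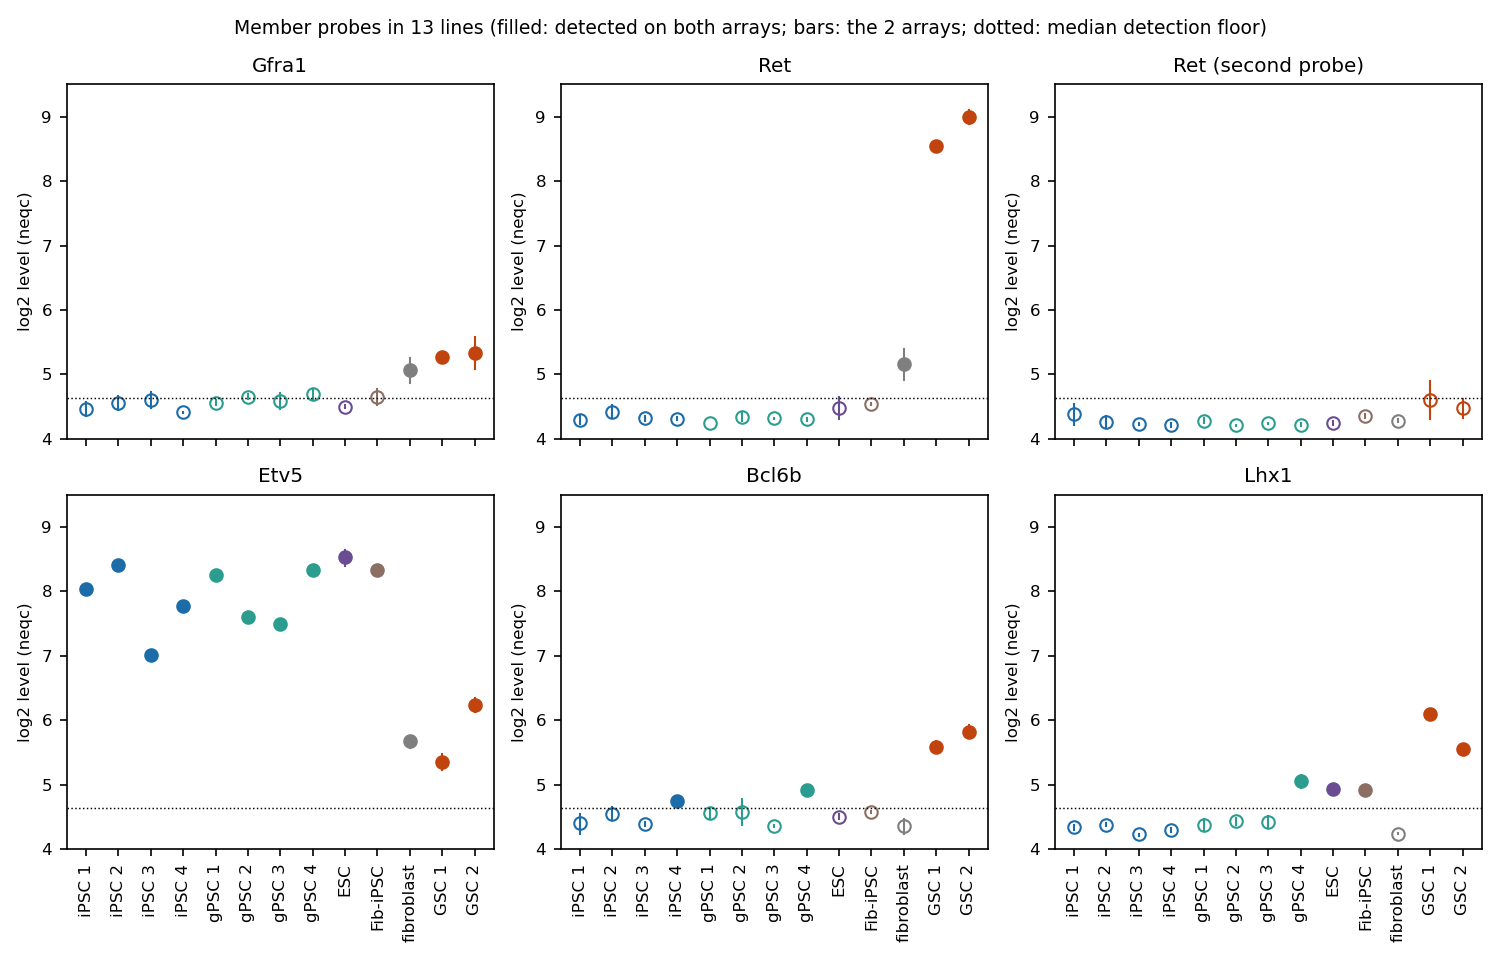
Log2 level (vertical axis, neqc scale) of the 6 member probes in the 13 lines (horizontal axis), each point the mean of the 2 arrays of a line and the bar joining those arrays. Filled points were detected on both arrays and the dotted line is the median detection floor of 4.63. Ret (8.54 and 8.99), Gfra1, Bcl6b and Lhx1 are highest in the GSC lines, while Etv5 is at 7.02 to 8.53 in all pluripotent lines.

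Etv5 ran the other way. The transcription factor, which spermatogonial stem cells need for their maintenance, was measured at 8.04, 8.41, 7.02 and 7.78 in iPSC lines 1 to 4 and at 8.26, 7.61, 7.49 and 8.33 in gPSC lines 1 to 4 (ILMN_2938047). ESC had 8.53 and Fib-iPSC 8.33, against 5.67 in fibroblasts and 5.35 and 6.23 in the GSC lines. Every pluripotent line lay above both GSC lines and the fibroblasts, and the probe was detected on all 26 arrays. Etv5 rose by 2.02 ± 0.41 log2 in iPSC (4.07-fold) and by 2.14 ± 0.41 in gPSC (4.39-fold) relative to GSC (SE, adjusted p = 0.00327 and 0.00248, limma). In ESC it was higher than in GSC by 2.74 ± 0.58 (6.67-fold, adjusted p = 0.00718). Leaving out each line in turn moved the iPSC difference between 1.58 (without GSC line 1, adjusted p up to 0.0494) and 2.46 (without GSC line 2). The gPSC difference then ran from 1.69 to 2.58. Among the iPSC lines, line 3 was lowest at 7.02.

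Because Etv5 is the one member that rose, its promoter is shown here with those of Lhx1 and Gfra1, members that were highest in GSC. The sequences are the 250 bases before a start listed by RefSeq for build GRCm38.p6, each on the minus strand and written 5′ to 3′. The Etv5 and Lhx1 windows adjoin the outer end of the annotated gene, while the Gfra1 window belongs to a start inside the annotated gene. Capitals mark CCAAT (the box bound by NF-Y) or its reverse complement and, in Lhx1, TGACG (part of a CREB site).
Etv5, chr16:22439571-22439820: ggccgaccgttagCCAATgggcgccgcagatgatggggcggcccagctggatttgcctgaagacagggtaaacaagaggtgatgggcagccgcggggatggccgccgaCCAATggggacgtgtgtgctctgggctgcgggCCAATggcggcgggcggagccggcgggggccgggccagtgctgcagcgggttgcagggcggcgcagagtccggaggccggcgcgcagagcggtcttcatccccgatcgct
Lhx1, chr11:84525535-84525784: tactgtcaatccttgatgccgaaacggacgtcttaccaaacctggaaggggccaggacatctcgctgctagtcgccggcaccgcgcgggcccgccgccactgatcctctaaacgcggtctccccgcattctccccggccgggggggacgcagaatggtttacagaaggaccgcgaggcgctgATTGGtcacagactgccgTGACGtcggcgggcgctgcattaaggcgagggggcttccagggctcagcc
Gfra1, chr19:58455399-58455648: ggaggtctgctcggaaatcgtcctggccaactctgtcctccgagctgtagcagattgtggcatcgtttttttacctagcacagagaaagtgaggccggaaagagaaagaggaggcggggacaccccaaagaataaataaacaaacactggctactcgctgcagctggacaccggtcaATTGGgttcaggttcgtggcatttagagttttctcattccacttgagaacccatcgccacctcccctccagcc
The Etv5 window shown holds CCAAT 3 times, against 1 each in Lhx1 and Gfra1. The window of a second Etv5 start, inside the gene (chr16:22438369-22438618), holds it 1 time, and 33.8% of 32851 promoter windows of this length hold at least 1. How many windows hold it 3 times was not counted, and Ret and Bcl6b have no window here, so the numbers are a description. GC content is 71.2% in the Etv5 window shown and 62% in the second, against 64.8% in Lhx1 and 52.4% in Gfra1. Kit, which has no value here, has 2 overlapping windows with no match to any motif searched. TGACG, in 17.8% of all windows, was found once, in Lhx1, 50 bases before the start. None of the windows holds CCGGAAG (an ETS site, in 6.91% of windows), GCGNGGGCG (an EGR site, 4.7%) or TGACGTCA (a full CREB site, 1.55%), searched on both strands. TGACG lies within TGACGTCA, and both short motifs were chosen after the other 3 gave no match.

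Bcl6b, a zinc finger transcriptional repressor, was also highest in GSC. Its probe (ILMN_2629764) had 4.40, 4.55, 4.39 and 4.75 in iPSC lines 1 to 4 and 4.56, 4.57, 4.36 and 4.92 in gPSC lines 1 to 4. Levels were 4.50 in ESC, 4.57 in Fib-iPSC, 4.35 in fibroblasts, and 5.58 and 5.82 in GSC. It was detected on 3 of 8 arrays in iPSC, 4 of 8 in gPSC, none in ESC, Fib-iPSC or fibroblasts, and 4 of 4 in GSC. Bcl6b fell by 1.18 ± 0.17 log2 in iPSC and by 1.10 ± 0.17 in gPSC (SE, adjusted p = 5.04e-04 and 7.86e-04, limma), and was at least 2.12-fold lower in ESC (-1.20 ± 0.24, adjusted p = 0.00582) than in GSC. The size sits close to the 2-fold limit, so the gPSC call was lost without GSC line 2 (-0.98), with only the b arrays (-0.95) and with values raised to the floor (-0.95).

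Lhx1, a LIM homeodomain factor that is also known from the primitive streak and early mesoderm of the embryo, had 4.34, 4.38, 4.23 and 4.30 in iPSC lines 1 to 4 (ILMN_2716543). The gPSC lines 1 to 4 had 4.38, 4.43, 4.42 and 5.05. ESC had 4.93, Fib-iPSC 4.92, fibroblasts 4.24, and the GSC lines 6.10 and 5.55. Besides GSC, the lines that detected Lhx1 on both arrays were gPSC line 4, ESC and Fib-iPSC. No iPSC array detected it, and Lhx1 was at least 2.33-fold lower in iPSC than in GSC (-1.51 ± 0.21 log2, adjusted p = 4.21e-04, limma). In gPSC it fell by 1.25 ± 0.21 (adjusted p = 0.00128), which was under 2-fold without GSC line 1 (-0.98). The ESC difference of -0.89 ± 0.30 was not called (adjusted p = 0.052), and became called without GSC line 2 (-1.16, adjusted p = 0.0365).

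**Figure D2:**
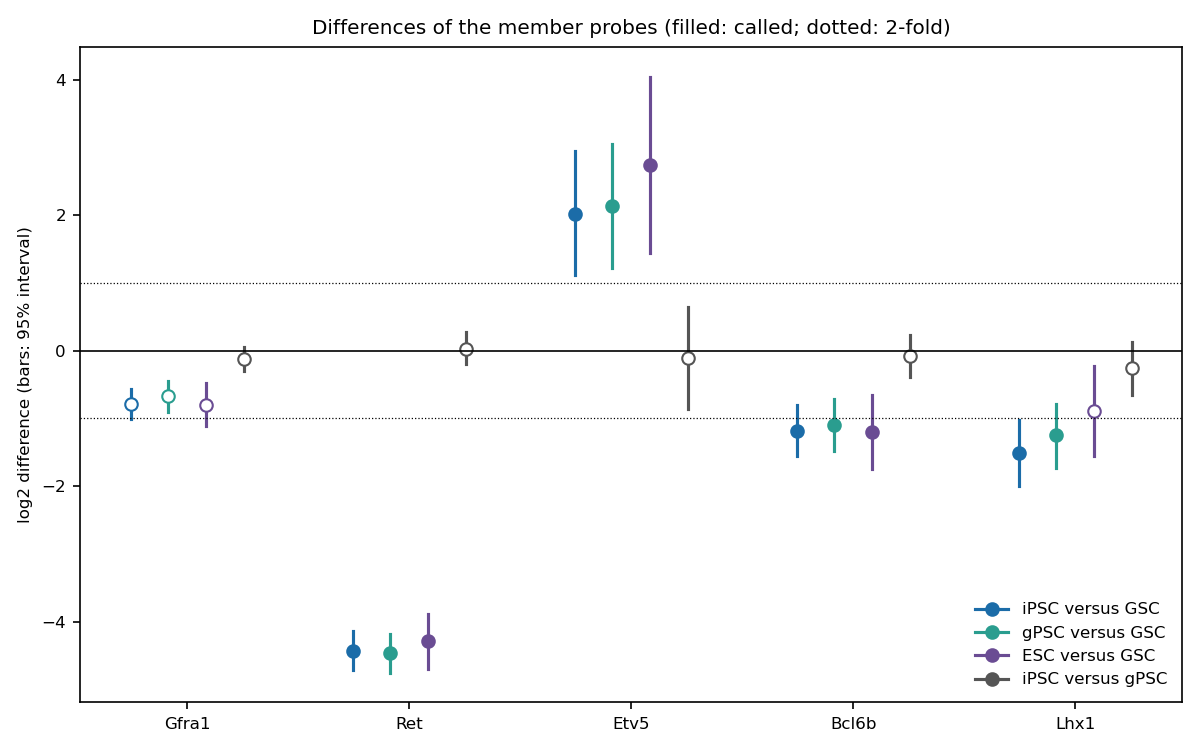
Log2 differences (vertical axis) with 95% intervals for the 5 tested member probes in 4 comparisons, filled where called and with dotted lines at 2-fold. Ret lies between -4.46 and -4.28 against GSC and Etv5 between 2.02 and 2.74, while all 5 intervals of iPSC versus gPSC include 0.

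Read against the background of the arrays, these counts need care. In iPSC versus GSC 21% of the 15917 tested probes were called (10.3% higher, 10.8% lower), and of the 5 tested member probes 1 was higher, 3 were lower and 1 was not called. In gPSC versus GSC 19.9% were called (9.29% higher, 10.6% lower), and the member counts were the same. In ESC versus GSC 19% were called (9% higher, 9.98% lower), with 1 member probe higher, 2 lower and 2 not called. The median member difference was -1.18, -1.10 and -0.89 log2 in these comparisons, against -0.02, 0.00 and -0.03 over all tested probes. These comparisons share the 2 GSC lines, so their values are not independent of each other. With 5 probes that passed the filter partly because GSC expresses them, the counts are a description.

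Between both routes no member was called. Ret, Gfra1, Etv5 and Bcl6b overlapped between the iPSC and gPSC lines, and the differences over the 5 probes ran from -0.26 (Lhx1) to 0.03 (Ret) log2, with adjusted p from 0.659 to 0.912. For Etv5 the difference was -0.11 with a 95% interval of -0.86 to 0.64, which is as closely as these lines bound it. For Lhx1 the highest iPSC line and the lowest gPSC line were both at 4.38, and the difference had an interval of -0.65 to 0.13. In this comparison 0 of 15917 probes were called with limma (0%), although 1201 had an unadjusted p under 0.05.

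Nor was any member called between the germline-derived lines and the 1 ESC line, where 0.226% (iPSC) and 0.251% (gPSC) of the probes were called. Etv5 was -0.72 log2 in iPSC and -0.60 in gPSC relative to ESC, with 95% intervals of -1.90 to 0.47 and -1.79 to 0.58. Lhx1, detected on no iPSC array, was at least 1.26-fold lower in iPSC than in ESC and was not called (adjusted p = 0.921). Since ESC is a single line, its spread is taken from the other groups.

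The Fib-iPSC line and the fibroblasts are 1 line each and were compared by their values alone. Etv5 had 8.33 in Fib-iPSC and 5.67 in fibroblasts, and Lhx1 had 4.92 (detected on 2 of 2 arrays) and 4.24 (0 of 2). Ret had 4.54 (0 of 2) and 5.16 (2 of 2), and Gfra1 4.65 (1 of 2) and 5.06 (2 of 2). Bcl6b was on no array of either line. In this pair, too, Etv5 was the member with the higher level in the pluripotent line by the widest margin, and the receptor genes were dimmer there.

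The order of the groups thus differed by gene. For Ret and Gfra1 it was GSC, fibroblasts and then the pluripotent lines, whose levels sat at the floor and have no order among themselves. For Gfra1, GSC was above fibroblasts on the a arrays but not on the b arrays. Fibroblasts were themselves close to the floor on an array for each gene (Ret 4.92 over 4.81, Gfra1 4.86 over 4.78). For Bcl6b GSC came first and the other group means ran from 4.35 to 4.60. For Lhx1 GSC came first, followed by ESC and Fib-iPSC at 4.93 and 4.92. For Etv5 ESC (8.53), Fib-iPSC (8.33), gPSC (7.92 ± 0.43) and iPSC (7.81 ± 0.59) were followed by GSC (5.79 ± 0.62) and fibroblasts (SD over 4, 4 and 2 lines), and neighbours among the first 4 did not differ beyond the spread of lines. Over the 13 lines Ret correlated with Bcl6b at r = 0.911, with Gfra1 at 0.908 and with Lhx1 at 0.827, and with Etv5 at -0.741. These are descriptions, and the 2 GSC lines weigh heavily in each of them.

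The genes whose levels over the 13 lines were most like each member were taken as the top 3 by Pearson's r. For Ret they were Hes5 (r = 0.995), a Notch target, with Lpar3 (0.993) and Bnc1 (0.993), all of them highest in GSC. For Etv5 they were Socs2 (0.969), an inhibitor of cytokine signalling, Trub2 (0.967) and Nodal (0.958), the TGF-beta family ligand of the early embryo. Nodal averaged 7.50 in iPSC and 7.68 in gPSC, against 4.51 in GSC. For Gfra1 they were Prdx4 (0.977), Zcrb1 (0.976) and Dynll1 (0.975), whose levels in fibroblasts also lay between those of GSC and the pluripotent groups. For Bcl6b they were D930020B18Rik (0.977), Fam187b (0.974) and Khdrbs2 (0.974), of which D930020B18Rik and Khdrbs2 averaged only 4.71 and 4.74 in GSC, near the floor. For Lhx1 they were Thsd4 (0.959), Pphln1 (0.954) and Eef1aknmt (0.953).

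The remaining ligands and co-receptors of the GDNF family were mostly dim. Of 10 genes 7 were tested, and 0 were higher and 1 lower in both iPSC and gPSC versus GSC, with medians of 0.03 and 0.01. Over all tested probes 10.3% were higher and 10.8% lower in iPSC, and 9.29% and 10.6% in gPSC. The counts of this and every other list stand beside these shares and are descriptions. The gene called in this list was Gfra3, the co-receptor for artemin. It was detected on no array of the iPSC, gPSC, ESC, Fib-iPSC or fibroblast lines, against all 4 GSC arrays (5.87 and 5.33). The filter was thus passed through GSC alone, where the gene is high, and the call is a description. Gfra3 was at least 2-fold lower in iPSC and at least 1.91-fold lower in gPSC (-1.21 ± 0.14 and -1.26 ± 0.14 log2, adjusted p = 1.56e-04 and 1.26e-04, limma), and under 2-fold without GSC line 1 (-0.94 and -0.99). Gdnf, the ligand itself, was chosen after its values were seen. In iPSC 4 of 8 arrays detected it and in gPSC 4 of 8, with 5.78 in gPSC line 1. It was at 6.24 in fibroblasts, and no GSC array detected it (4.27 and 4.37). Its differences of 0.30 and 0.59 to GSC were not called (adjusted p = 0.528 and 0.208).

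Of 14 other genes known to respond to GDNF in cultured germline stem cells 11 were tested, and 0 were higher and 6 lower in iPSC, and 0 higher and 7 lower in gPSC, with medians of -1.71 and -1.70. The lower ones include Tspan8, named after its values were seen, which was detected in GSC alone and passed the filter only there. Egr3 (-0.12 and 0.03) and Cxcr4 (0.17 and 0.12), named after their values were seen, were among those not called. Egr4, a zinc finger transcription factor gene, had 5.03, 5.83, 4.20 and 5.20 in iPSC lines 1 to 4 and 5.28, 6.62, 4.25 and 6.47 in gPSC lines 1 to 4, against 12.81 and 12.88 in the GSC lines. Line 3 was under the floor in both iPSC and gPSC. It fell by 7.79 ± 0.64 log2 in iPSC and by 7.20 ± 0.64 in gPSC (SE, adjusted p = 1.99e-05 and 3.33e-05, limma).

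Nanos2, an RNA-binding protein gene that keeps spermatogonia undifferentiated, averaged 4.50 in iPSC and 4.46 in gPSC, against 8.26 and 7.99 in the GSC lines. The differences were -3.63 ± 0.11 and -3.66 ± 0.11 log2 (adjusted p = 7.27e-08 and 6.68e-08), and 2 of 8 arrays detected it in iPSC, 1 of 8 in gPSC. Outside GSC no line detected Nanos2 on both arrays, so it passed the filter through GSC alone and the call is a description. Foxc2, a forkhead factor gene, also fell (-2.84 ± 0.20 and -2.80 ± 0.20, adjusted p = 7.24e-06 and 8.2e-06), and had 9.08 in fibroblasts. Ccnd2, the gene of cyclin D2, fell by 3.65 ± 0.97 in iPSC and by 2.94 ± 0.97 in gPSC (adjusted p = 0.0131 and 0.036). Without GSC line 2 it was not called (-3.16, adjusted p = 0.109, and -2.45, adjusted p = 0.215), and in gPSC 7 of 10 fits without 1 line ended the call. Among gPSC lines Ccnd2 was highest in line 1 at 9.30, and fibroblasts had 11.07.

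**Figure D3:**
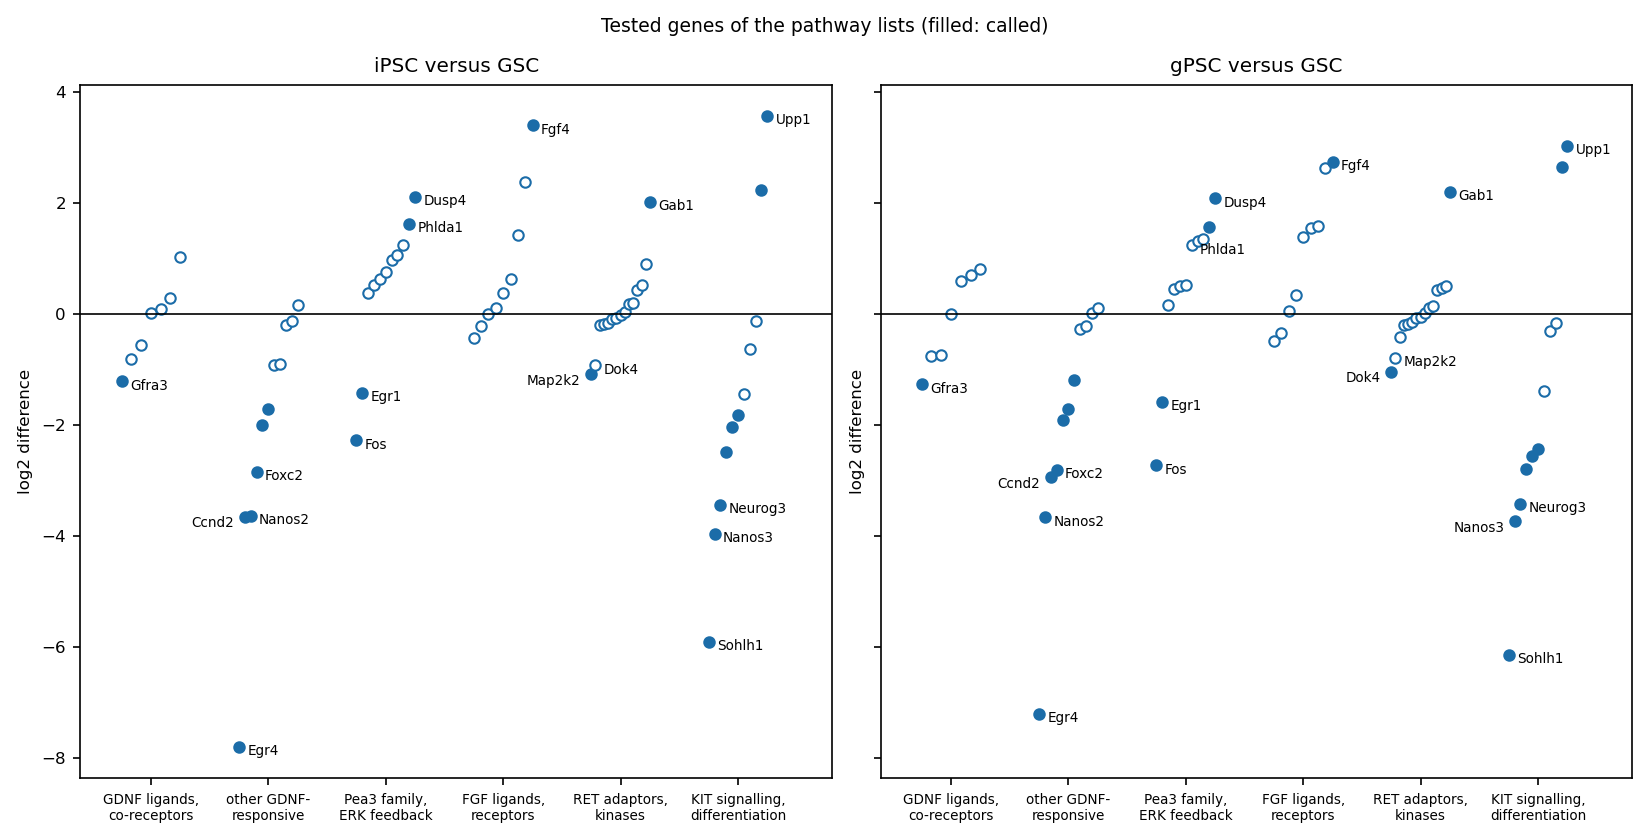
Log2 differences (vertical axis) of each tested gene in 6 pathway lists (horizontal axis), iPSC versus GSC on the left and gPSC versus GSC on the right, filled where called and with the genes named in the text labelled. Egr4 lies lowest of the GDNF-responsive genes at -7.79 and -7.20, and no gene of that list is called higher.

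The Pea3 family and genes of ERK feedback, the set in which Etv5 would be placed, had few calls, in both directions. Of 14 genes 11 were tested, and 2 were higher and 2 lower in both iPSC and gPSC, with medians of 0.76 and 0.52. The shares over all tested probes were 10.3% higher and 10.8% lower in iPSC, and 9.29% and 10.6% in gPSC. The number called higher ranged from 1 to 3 as single lines were left out. Dusp4, a nuclear phosphatase that acts on ERK, averaged 6.54 in iPSC and 6.52 in gPSC, against 4.30 and 4.56 in GSC, where 1 of 4 arrays detected it. It rose by 2.11 ± 0.26 log2 in iPSC and 2.09 ± 0.26 in gPSC (SE, adjusted p = 1.97e-04 and 2.19e-04, limma). Phlda1 was 1.63 ± 0.58 higher in iPSC (adjusted p = 0.0451) and 1.24 ± 0.58 higher in gPSC (adjusted p = 0.115, not called). The iPSC call ended in 7 of 10 fits that left out 1 line, GSC line 1 or 2 among them (adjusted p up to 0.261), and Phlda1 was highest in fibroblasts at 10.36. Spred1, an inhibitor of RAS-ERK signalling, was the second gene called in gPSC (1.58 ± 0.45, adjusted p = 0.0192), but not once GSC line 1 or 2 was left out (adjusted p up to 0.124).

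Of the immediate early genes in the same list, Egr1 and Fos were lower and Ier3, named after its values were seen, was not called (0.39 and 0.16). Egr1 fell by 1.42 ± 0.21 log2 in iPSC and by 1.58 ± 0.21 in gPSC (adjusted p = 5.72e-04 and 3.38e-04, limma). Fos fell too (-2.27 ± 0.68 and -2.72 ± 0.68, adjusted p = 0.0231 and 0.0106), and leaving out GSC line 1 or 2 ended its call (adjusted p up to 0.134 in iPSC and 0.0816 in gPSC). The closest relatives of Etv5, named after their values were seen, were not called. Etv4 was 1.24 ± 0.52 higher in iPSC and 1.35 ± 0.52 higher in gPSC (adjusted p = 0.0832 and 0.0657). Etv1 was 0.98 ± 0.53 and 1.32 ± 0.53 higher (adjusted p = 0.166 and 0.0721) and was detected on no GSC array. Line 3 of the iPSC group had the lowest Etv1 (4.52), Spred1 (6.39) and Etv5 (7.02) of the 4. It had the highest Phlda1 (8.42), Ier3 (10.34) and Fos (11.81), and Etv4 was lowest in line 4 (7.20, against 7.31 in line 3). The remaining tested genes of this list were also lowest in line 3.

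**Figure D4:**
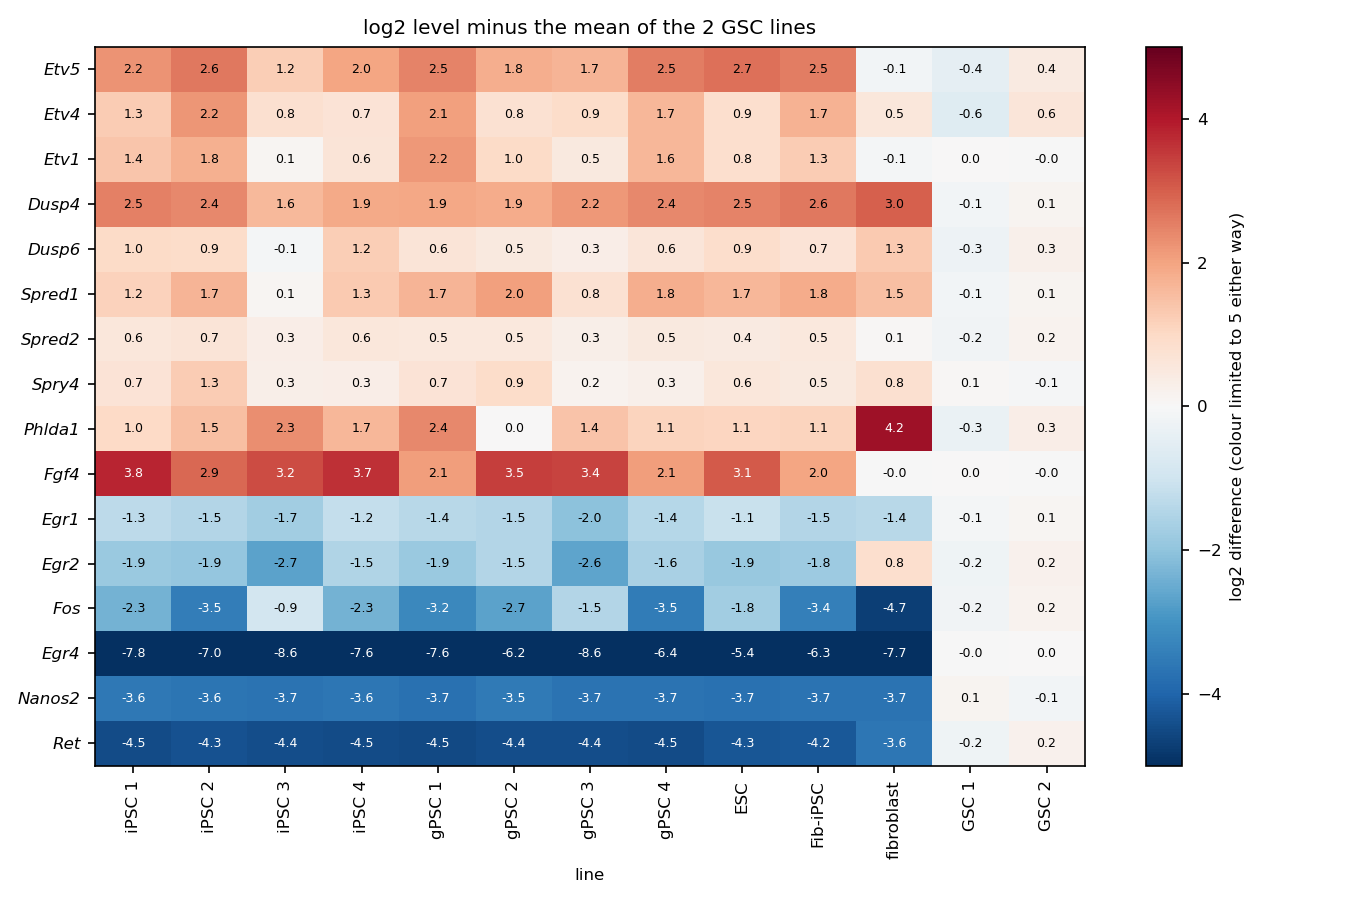
Log2 level of 16 genes (rows, chosen after their values were seen) in each line (columns), minus the mean of the 2 GSC lines, in colour and as printed values. Etv5, Dusp4 and Fgf4 are above GSC in every pluripotent line, while Egr1, Egr2, Fos, Egr4, Nanos2 and Ret are below it in each of them.

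Among FGF ligands and receptors, which act upstream of the Pea3 factors in pluripotent cells, 9 of 11 genes were tested. In both comparisons 1 was higher and 0 were lower, with medians of 0.38 in iPSC and 1.40 in gPSC, but 3 were higher in iPSC without iPSC line 3 (2 without gPSC line 3), and 4 in gPSC without gPSC line 3 (2 without iPSC line 3). Fgf4, the growth factor through which pluripotent cells stimulate their own ERK pathway, was detected on all iPSC and gPSC arrays and on no GSC array. It was at least 8.44-fold higher in iPSC and at least 5.39-fold higher in gPSC than in GSC (adjusted p = 2.69e-04 and 9.22e-04, limma).

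Of 23 genes of RET adaptors and kinases 15 were tested, and 1 was higher and 1 lower in each comparison, with medians of -0.02 and -0.05. Beside them stand the shares over all tested probes, 10.3% higher and 10.8% lower in iPSC, and 9.29% and 10.6% in gPSC. Gab1, a docking protein downstream of RET and of FGF receptors, rose by 2.02 ± 0.13 log2 in iPSC and 2.21 ± 0.13 in gPSC (SE, adjusted p = 4.2e-06 and 2.61e-06, limma). Map2k2, the gene of the kinase MEK2, fell by 1.08 ± 0.26 in iPSC (adjusted p = 0.00818), and was under the limits without GSC line 1 (-1.02, adjusted p = 0.0672), iPSC line 3 (-0.99) or iPSC line 4. Dok4, an adaptor that binds RET, fell by 1.04 ± 0.14 in gPSC (adjusted p = 3.39e-04), and was under 2-fold without GSC line 2 (-0.96), gPSC line 4 or the fibroblast line (-0.99).

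Kit signalling itself was not measured, since no probe carries the name Kit. Genes listed with it are given as transcript levels, not as a measure of KIT activity. Kitl, the ligand of KIT, did not pass the filter. Of the 14 genes of KIT signalling and spermatogonial differentiation 11 were tested, and 2 were higher and 6 lower in both iPSC and gPSC, with medians of -1.81 and -2.43. The lower ones include Dmrt1, named after its values were seen, which passed the filter through GSC alone. Sohlh1, a helix-loop-helix factor known to act upstream of Kit in the mouse, averaged 5.08 in iPSC and 4.85 in gPSC, against 11.13 and 10.82 in GSC. It fell by 5.90 ± 0.33 log2 in iPSC and by 6.13 ± 0.33 in gPSC (SE, adjusted p = 2.07e-06 and 1.78e-06, limma). Neurog3, a marker of early progenitors, was not detected on any array of iPSC or gPSC and was at least 8.7-fold and at least 8.3-fold lower than in GSC (adjusted p = 2.52e-05 and 2.8e-05). Its GSC levels were 8.43 and 7.01, and the measured differences of -3.43 and -3.42 log2 came to -2.72 and -2.71 without GSC line 1, and to -4.14 and -4.12 without GSC line 2. Nanos3 fell as well (-3.95 ± 0.30 and -3.73 ± 0.30, adjusted p = 1.33e-05 and 1.99e-05). Upp1, a uridine phosphorylase gene, rose by 3.57 ± 0.55 and 3.03 ± 0.55 (adjusted p = 7.2e-04 and 0.0019).

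Other cell types in the cultures were followed through their markers. The mean level of 9 fibroblast and feeder markers was 8.74 in gPSC line 1 and 4.92 to 7.25 among the remaining 7 lines of these groups. The fibroblast line had a mean of 8.83. It was 6.73 in ESC, 7.04 in Fib-iPSC, and 6.09 and 6.39 in GSC. The single markers did not match between gPSC line 1 and the fibroblast line. Dcn (11.68 against 7.30), Lum (11.21 against 5.21) and Pdgfra (8.76 against 7.98) were higher in gPSC line 1. The other markers were lower there, Col1a1 (9.09 against 12.23) and Thy1 (9.61 against 11.80) among them. In gPSC line 1 Gfra1 (4.56) and Ret (4.25) were below the floor, and fibroblasts detected both. Of these markers 0 were higher and 1 lower in iPSC (Twist1, -1.51 ± 0.32, adjusted p = 0.00448), and none was called in gPSC, where limma gave Twist1 -0.91 (adjusted p = 0.0475, under 2-fold). Without gPSC line 1 all 4 member probes called in gPSC versus GSC kept their call.

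Of 10 Sertoli and testis somatic markers 6 were tested, and 2 were higher and 1 lower in each comparison. Wt1 averaged 4.92 in iPSC and 5.52 in gPSC, against 9.20 and 8.78 in GSC (-4.07 ± 0.44 and -3.47 ± 0.44 log2, adjusted p = 9.36e-05 and 2.48e-04, limma). Acta2 and Clu were higher. Both lost the gPSC call without GSC line 1 or 2, as Clu did in iPSC, and Acta2 lost the iPSC call without GSC line 1. The mean level over the 10 genes was 5.08 to 5.25 in iPSC, 5.05 to 5.46 in gPSC and 5.16 in both GSC lines, and Amh, Cyp17a1, Star and Hsd3b1 did not pass the filter. Melanocyte and mast cell markers, which belong to cells that express Kit, had 3 of 8 genes tested and none called. Their mean was 4.38 to 4.46 in iPSC, 4.38 to 4.44 in gPSC, and 4.45 and 4.44 in GSC, with Mitf (0.38 and 0.34) and Pmel (-0.43 and -0.45) the largest differences. The part of other cell types in the member differences was not tested. In bulk RNA fewer cells of a type and less RNA per cell cannot be told apart.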

How the data were processed

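Expression was measured in 13 mouse lines, with a pair of arrays for each. The deposited table holds probe intensity, without normalization or background subtraction, and next to it a detection p-value computed against negative controls, per the file headers. A second table holds the authors' log2 values; all its arrays share 1 distribution, so they were quantile normalized, and the background step before that is not given in the sources used here. Tools named in the submitters' processing notes are BeadStudio 3.2 and lumi, with no roles.

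The neqc function of limma 3.58.1 (R 4.3.3, offset 16) was applied to the intensities, with the negative controls inferred through the detection p-values. Each line entered as the average of its arrays, so p-values measure the spread between lines, pooled over iPSC, gPSC and GSC. Most lines behind that pooled spread are iPSC and gPSC lines, and where those lay at the floor their spread was small. For Ret the SD was 0.06 in iPSC and 0.04 in gPSC, against 0.32 over the 2 GSC lines. For genes high in GSC alone, such p-values can understate the variation among GSC lines. A probe was kept if at least 1 line had it at detection p under 0.05 on both arrays (15917 of 25697, 61.9%). One mean per group was estimated over all 13 lines (lmFit and eBayes, two-sided), with Benjamini-Hochberg adjustment over all kept probes. Groups of 1 line are assumed to vary like the others, and the few lines limit the precision. Where every array of the dimmer group lacked detection, a fold is written "at least" and set against the floors of those arrays. The fit was checked on simulated data.

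The platform's annotation gives 1 symbol for 23978 probes, several for 0 and none for 1719. In lists, the brightest probe of a gene was used. Named from each list were the genes called in iPSC or gPSC versus GSC, at most the 4 with the largest mean difference, or the 2 largest where none was called. The members and lists were chosen with earlier results of these data known. Promoters of Ret and Bcl6b were not analysed here. Other normalizations, filters, array choices and left-out lines were tried.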

Additional observations from a re-analysis of the deposited data

Results flagged for a closer look

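In 7 of 74 groups of 4 lines tested, over the members and the genes named from the lists, 1 line stood apart from the other 3 by Dixon's test, which chance does in about 1 in 20 groups. Among the members this was Lhx1 in gPSC line 4, at 5.05 on the log2 scale against 4.38 to 4.43 in the other gPSC lines, detected on both arrays. Nanos2 in gPSC line 2 was at 4.60 against 4.40 to 4.42, near the detection floor. Egr1 in gPSC line 3 was at 11.66 against 12.22 to 12.31. The other 4 were all in iPSC line 3: Foxc2 at 4.81 (others 4.36 to 4.37), Sohlh1 at 5.97 (4.77 to 4.79), Dazl at 10.80 (6.07 to 6.71) and Tex101 at 7.34 (4.51 to 4.79).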

How the results depend on the processing

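Of 330 member differences against GSC under the alternatives, 330 kept their direction and 312 also their side of the call, and of 1668 differences of list genes 0 reversed. Many of these could not have reversed. Leaving out an iPSC or gPSC line that is not in the comparison does not change the difference. The settings for the filter and for 1 probe per gene do not change it either. In those fits only the p-values can move, so the tallies overstate stability. Probes called in iPSC, gPSC and ESC versus GSC numbered 1471, 1359 and 1356 with log2 quantile values without background correction, 2173, 2005 and 1952 with an offset of 50, and 5229 and 4962 (iPSC and gPSC) with the authors' processed values. The first 2 settings left 2 of 5 member probes called in iPSC and 2 in gPSC (Ret and Etv5). With log2 quantile values Bcl6b and Lhx1 came to -0.40 and -0.54 in iPSC and -0.37 and -0.44 in gPSC, under the 2-fold limit. With an offset of 50 they came to -0.59 and -0.76 in iPSC, and -0.56 and -0.65 in gPSC. The reason for these smaller sizes was not tested. In iPSC versus gPSC 1 probe was called with the authors' values and 4 with the a arrays only, with line as a random block and with a replicate block by array letter. The a arrays are also those on which the iPSC and gPSC lines differed in median intensity. Versus ESC, in iPSC and gPSC, calls were 12 and 12 (log2 quantile), 16 and 18 (offset 50), 18 and 20 (stricter filter), 99 and 95 (line as a random block) and 84 and 89 (replicate block by array letter), with 26 for gPSC at 1 probe per gene. The cause was not tested. Etv5 in iPSC versus gPSC changed sign without iPSC line 3 (0.15), gPSC line 1 (0.00) or gPSC line 4 (0.02). Without iPSC line 2 it was -0.31, so single lines moved it between -0.31 and 0.15. Leaving out lines gave 2851 to 3460, 2662 to 3240 and 2215 to 3194 probes called versus GSC. Line numbers did not pair the iPSC and gPSC lines (same-number correlations -0.07, -0.07, 0.67 and -0.08), and a replicate block by line number called 0 probes. Levels near the floor (median 4.63) limit Gfra1, Bcl6b and Lhx1.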
